A study of Mus musculus with 12 samples.

Results

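A group of 76 genes had its lowest mRNA level at gestation day (GD) 9.0 in the mouse neural tube and a higher level both before, at GD8.5, and after, at GD9.5. The genes were chosen by their levels, out of 18193 genes on the array, which makes them 0.418% of all genes. A gene was taken if its mean at GD9.0 lay at least 0.4 (log2) below its mean at GD8.5 and at least 0.4 below its mean at GD9.5. In addition, every GD9.0 array had to read below every array of the other stages, and the means at GD8.5 and GD9.5 had to be at least 2.5. The fall to GD9.0 and the return by GD9.5 are therefore how the genes were chosen and are described here without a test. The rule set no condition on the difference between GD9.5 and GD8.5, which was tested, but the values of both stages had entered the rule, so these tests are not independent of the choice.

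The neural tube, from which brain and spinal cord form, was micro-dissected from embryos of ICR (CD-1) mice, an outbred stock, with no treatment named, at these 3 stages, and 100 ng of total RNA per sample was hybridised to Affymetrix mouse genome arrays. The labels give 4 biological replicates per stage without saying whether these were embryos, litters or pools, and give no sex, so the errors measure the spread between these samples, and the number of arrays limits the precision. Deposited values were log2 levels for 10 arrays (all of GD9.0 and GD9.5, and GD8.5 replicates 3 and 4), and linear intensities on a scale of their own for GD8.5 replicates 1 and 2, so the genes were chosen on the 10 arrays and n is 2 at GD8.5 and 4 at each later stage.

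Over these stages the neural plate rises, folds and closes into a tube, and the first neurons and neural crest cells are set aside. Closure uses signals from the surface ectoderm and the dorsal edge, such as bone morphogenetic proteins (BMPs), and needs folate, cell shape changes and continued cell division. A transcript that falls and returns within a day can do so through its production, its decay or the makeup of the tissue taken, which bulk arrays do not separate: fewer cells of a type and less RNA per cell cannot be told apart.

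All 10 neural tube identity markers were at the minimum level of 2.5. The median of their changes was 0.46 from GD8.5 to GD9.0 and 0.43 from GD9.0 to GD9.5. Only Sox3, an early neural transcription factor, had its lowest mean at GD9.0, with 5.82, 5.75 and 6.43 in order of stage. Among 8943 genes at the minimum level at GD8.5 and GD9.5, 2238 (25.0%) had their lowest mean at GD9.0, and 566 had every GD9.0 array below all others. The same rule turned upside down, for genes highest at GD9.0, took 31 genes.

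Control measures also had their lowest values at GD9.0. The 18S ribosomal RNA control probe sets read 9.82 ± 0.01 for GD8.5, 8.81 ± 0.18 for GD9.0 and 10.28 ± 0.08 for GD9.5 (mean ± SD, n = 2, 4 and 4). The excess of the 3′ over the 5′ probe set for actin, which grows when transcripts are copied or kept less completely, was 0.71 ± 0.02, 0.56 ± 0.03 and 0.93 ± 0.03. For Gapdh this excess differed far less between stages, with 0.039 ± 0.007, -0.001 ± 0.013 and 0.049 ± 0.028. Xist, the RNA that coats the inactive X chromosome of female cells, read 8.87 ± 0.01, 8.61 ± 0.07 and 9.16 ± 0.06. None of these 4 measures overlapped between GD9.0 and either other stage. For each, the exact two-sided permutation test gave p = 0.0286 for GD9.0 against GD9.5, the smallest that 4 against 4 arrays allow, and p = 0.0667 against GD8.5, the smallest that 4 against 2 allow. The median of the 76 genes, each set against its own mean over the 10 arrays, was 0.25 and 0.19 in the GD8.5 arrays, between -0.44 and -0.30 in the GD9.0 arrays, and between 0.20 and 0.32 in the GD9.5 arrays. The part of RNA quality, tissue makeup or sex makeup in the dips was not tested.

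**Figure D1:**
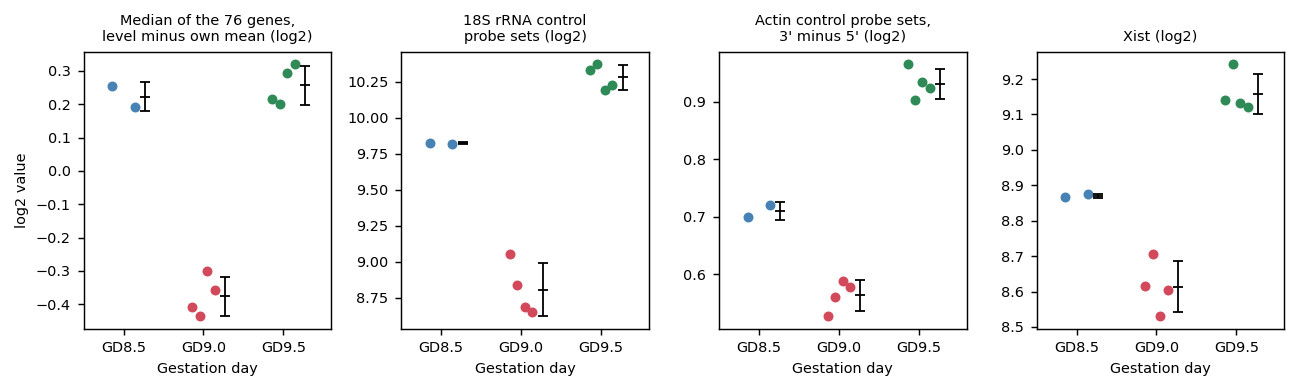
Each panel plots 1 log2 measure per array (points) by gestation day, with the mean and SD in black: the median over the 76 genes of the level minus the gene's own mean, the 18S control probe sets, actin 3′ minus 5′, and Xist. All 4 measures are lowest in the 4 GD9.0 arrays, and 18S, actin and Xist are highest at GD9.5.

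The dip of a gene is given below as the smaller of its differences, GD8.5 minus GD9.0 and GD9.5 minus GD9.0. It ran from 0.40 to 1.69 with a median of 0.51. The median gene stood 0.60 higher at GD8.5 and 0.60 higher at GD9.5 than GD9.0, where the median over all 18193 genes was 0.00 and -0.01. Between arrays of 1 stage, the SD of a typical gene was 0.06 for GD8.5, 0.11 for GD9.0 and 0.10 for GD9.5. These are medians over the 76 genes, with n = 2, 4 and 4 arrays. An SD from 2 arrays is a poor estimate, so GD8.5 cannot be called the tighter stage. The GD9.0 means of all 76 genes were above 1.42, the 95th percentile of 39 olfactory receptor genes, taken as a mark of background. The lowest was 1.99, in Kif26b, still close to background. The highest GD9.0 array lay below the lowest array of the other stages by 0.29 in the median gene, by at least 0.3 in 37 genes and by under 0.1 in 9, from 0.01 in Lcp1 to 1.45 in Dusp9. In the fit of all genes, 70 of the 76 were called lower at GD9.0 than GD8.5 (6.74% of all genes), all 76 were called higher at GD9.5 than GD9.0 (14.1%), and 70 were called in both steps (1.4%). These counts follow from the choice and carry no further information about the genes.

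**Figure D2:**
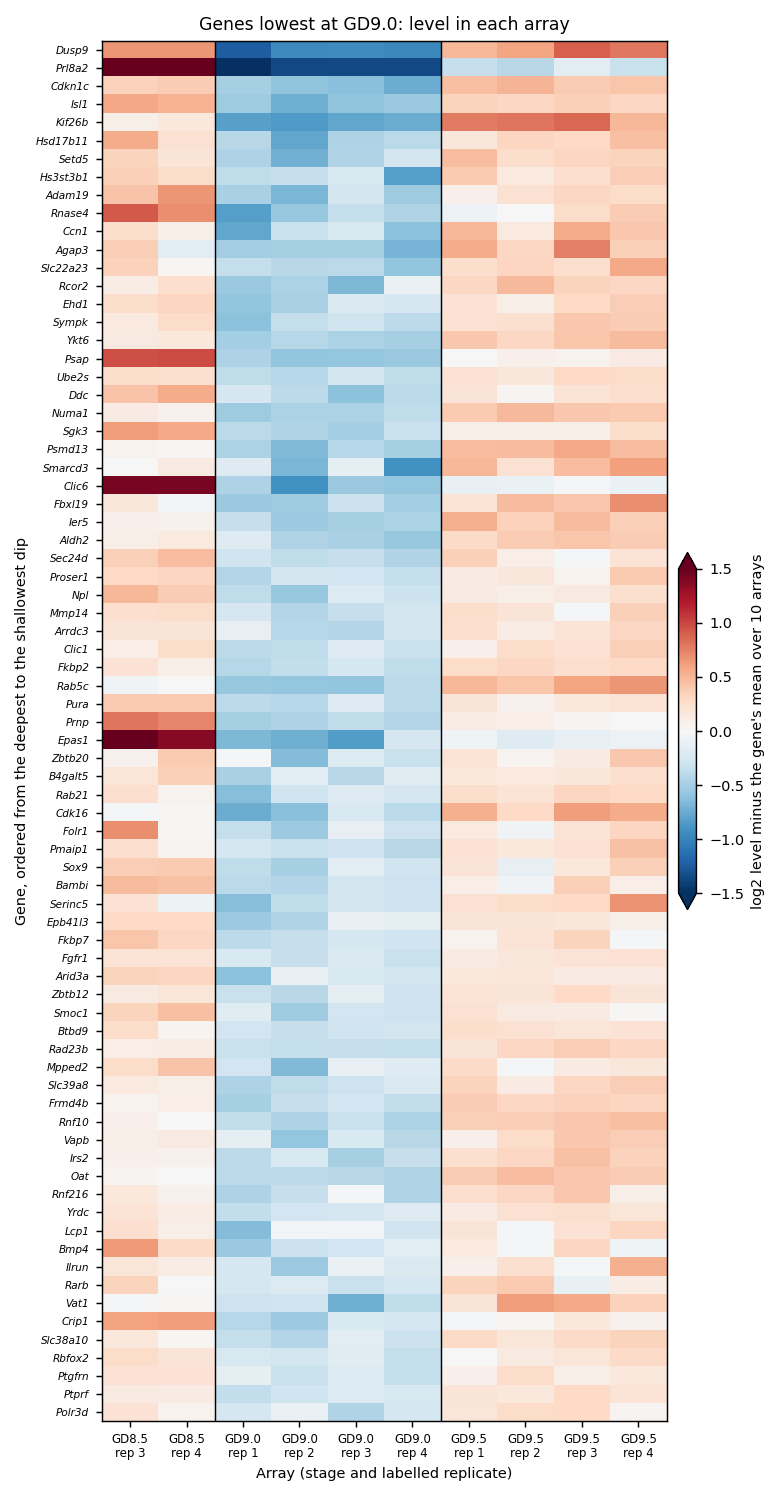
Each row is 1 of the 76 genes, ordered from the deepest to the shallowest dip, and each column 1 of the 10 log2 arrays; the colour is the log2 level minus the gene's mean over the arrays, capped at 1.5 either way. The 4 GD9.0 columns hold the lowest value of every row, while Prl8a2, Clic6, Epas1 and Psap stand out as much higher at GD8.5 than at GD9.5.

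At the edge of the rule, the shallowest dips taken were those of Polr3d, a subunit of RNA polymerase III, at 0.402, Ptprf, a receptor tyrosine phosphatase, at 0.405, and Ptgfrn, a membrane protein of the immunoglobulin family, at 0.408. Just outside stood Jun, the AP-1 transcription factor subunit, at 0.399, Ankrd6, a Wnt pathway protein, at 0.398 and Lmnb1, the nuclear lamin B1, at 0.398.

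Dusp9, a phosphatase that switches off MAP kinases, had the deepest dip. It read 4.68 in both GD8.5 arrays, 2.78, 3.06, 3.07 and 3.05 in GD9.0 replicates 1 to 4, and 4.51, 4.61, 4.91 and 4.80 in GD9.5 replicates 1 to 4. The GD9.0 arrays lay more than 1 log2 unit under every other array, which is 3.23-fold below GD8.5 and 3.30-fold below GD9.5. From GD8.5 to GD9.5 the gene changed by 0.03 ± 0.12 (SE; limma adjusted p = 0.887). Both other probe sets of Dusp9 met the same rule, 1 with means of 4.59, 2.90 and 4.67 in order of stage and 1 with 3.83, 3.10 and 3.74. Dusp9 lies on the X chromosome, as does only 1 other gene of the group, Cdk16, and Xist was lowest at GD9.0 by 0.26 and 0.54; its part in the dip of Dusp9 was not tested.

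Other signalling genes had shallower dips. The rule took 10 signalling genes in all, with dips from 0.43 to 1.69 and a median of 0.50. Prl8a2, a hormone made by the decidua, is counted among them and described further below. Bmp4, a ligand made at the dorsal edge of the neural tube and in the overlying ectoderm, read 4.75 and 4.40 at GD8.5, 3.56, 3.80, 3.84 and 3.96 at GD9.0, and 4.27, 4.10, 4.44 and 4.06 at GD9.5. The highest GD9.0 array of Bmp4 was only 0.10 below its lowest GD9.5 array. Bambi, a decoy receptor that dampens BMP and TGF-beta signals, had means of 5.82 ± 0.02, 5.01 ± 0.08 and 5.49 ± 0.17. Bambi was lower at GD9.5 than at GD8.5 by a log2 change of -0.33 ± 0.10 (limma adjusted p = 0.0254), a call lost without GD8.5 replicate 3 or 4 and without GD9.5 replicate 1, 2 or 4, where the change ran from -0.35 to -0.28, and after median centring (-0.30). For Bmp4 the same change was -0.36 ± 0.14, which did not pass (limma adjusted p = 0.0749).

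Bmp4 and Bambi were the members of the group in a list of 31 TGF-beta and BMP pathway genes, all measured. Of these, 9 were called lower and 6 higher at GD9.0 than GD8.5, and 13 were called higher and 7 lower at GD9.5 than GD9.0; of all genes, 6.74%, 6.78%, 14.1% and 10.3% were called in these directions. Of the 26 at the minimum level, 10 had their lowest mean at GD9.0; of all 8943 genes at that level, 25.0% did.

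Hs3st3b1, an enzyme that adds a 3-O-sulfate to heparan sulfate, the surface sugar that binds growth factors, read 3.38 and 3.30 at GD8.5, 2.65, 2.68, 2.78 and 2.20 at GD9.0, and 3.42, 3.17, 3.28 and 3.40 at GD9.5. Its GD9.0 arrays were spread more widely than those of the later stage, yet none reached the others. Sgk3, a kinase of the phosphoinositide 3-kinase pathway found on endosomes, had means of 3.45 ± 0.04, 2.42 ± 0.07 and 2.98 ± 0.09. It regained part of its level by GD9.5, with a log2 change from GD8.5 of -0.47 ± 0.07 (limma adjusted p = 0.000557), a call lost when all probe sets of the gene were averaged (-0.16). Fgfr1, a receptor for fibroblast growth factors, was also in the group, with means of 5.81, 5.32 and 5.78.

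Among the 7 genes of the cell cycle, mitosis and stress response, Cdkn1c had the deepest dip. Cdkn1c encodes p57, an imprinted inhibitor of cyclin-dependent kinases that marks cells leaving the cell cycle. It read 7.71 and 7.74 at GD8.5, 6.86, 6.75, 6.73 and 6.61 at GD9.0, and 7.81, 7.86, 7.74 and 7.77 at GD9.5. The highest GD9.0 array was 0.85 below the lowest of the others, and the GD9.0 mean was 1.98-fold lower than at GD8.5 and 2.08-fold lower than at GD9.5. The levels before and after differed by 0.07 ± 0.07 (limma adjusted p = 0.536).

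Ube2s, the ubiquitin-conjugating enzyme that works with the anaphase-promoting complex, dipped by 0.60. It read 8.53 and 8.50 at GD8.5, 7.88, 7.83, 7.99 and 7.89 at GD9.0, and 8.48, 8.43, 8.56 and 8.53 at GD9.5. The arrays of GD8.5 and GD9.5 overlapped, with a change of -0.02 ± 0.06 between them (limma adjusted p = 0.898). Numa1, a spindle pole protein, had means of 5.45 ± 0.04, 4.89 ± 0.06 and 5.78 ± 0.05. Numa1 ended above where it began, by 0.32 ± 0.06 (limma adjusted p = 0.00248).

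Ccn1, a secreted matrix-associated protein induced within minutes by serum and stretch, read 4.83 and 4.65 at GD8.5, 3.78, 4.22, 4.31 and 3.95 at GD9.0, and 5.06, 4.70, 5.11 and 4.96 at GD9.5. Its GD9.0 arrays spanned more than 0.5 of a log2 unit and stayed below all others. Ier5, another immediate early gene, had means of 4.79 ± 0.01, 4.26 ± 0.09 and 5.15 ± 0.09 and ended higher at GD9.5 than at GD8.5 by 0.36 ± 0.08 (limma adjusted p = 0.00477), a call lost with all 12 arrays (0.19) and with probe sets averaged (0.09). Both are in a list of 38 measured immediate early genes, in which 14 were called lower and 3 higher at GD9.0 than GD8.5, and 12 higher and 2 lower at GD9.5 than GD9.0 (6.74%, 6.78%, 14.1% and 10.3% of all genes). Of the 19 list genes at the minimum level, 10 had their lowest mean at GD9.0, as did 25.0% of all genes at that level. Pmaip1, which encodes the cell death protein Noxa, had means of 3.75 ± 0.15, 3.27 ± 0.06 and 3.86 ± 0.13.

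The 12 transcription and chromatin genes had dips from 0.43 to 0.94. Isl1, a LIM homeodomain factor of newly formed motor and sensory neurons and of heart progenitors, was the deepest. It read 5.50 and 5.44 at GD8.5, 4.39, 4.19, 4.33 and 4.37 at GD9.0, and 5.26, 5.24, 5.29 and 5.24 at GD9.5. All 3 stages were separate, with GD8.5 highest. The remaining difference of -0.22 ± 0.07 from GD8.5 to GD9.5 passed the test (limma adjusted p = 0.0339), a call lost without either GD8.5 array and without GD9.5 replicate 1, 2 or 4, where it ran from -0.24 to -0.19, and after median centring (-0.18). In the list of 37 measured neuronal differentiation genes to which Isl1 belongs, 2 were called lower and 19 higher at GD9.0 than GD8.5. At GD9.5, 30 were called higher than at GD9.0. Of all genes, 6.74%, 6.78% and 14.1% were called in these directions. The median change of the list's genes was 0.36 to GD9.0 and then 0.94 to GD9.5. Of 24 cardiac muscle genes, 19 were called lower at GD9.0 than GD8.5 and 15 lower at GD9.5 than GD9.0 (6.74% and 10.3% of all genes).

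Setd5, a SET domain chromatin protein, read 6.39 and 6.24 at GD8.5, 5.59, 5.33, 5.60 and 5.78 at GD9.0, and 6.52, 6.32, 6.38 and 6.38 at GD9.5. The stages before and after overlapped, with a change of 0.08 ± 0.11 (limma adjusted p = 0.651). Rcor2, a corepressor of the CoREST family that works with the histone demethylase Lsd1, had means of 4.76 ± 0.10, 4.12 ± 0.25 and 4.94 ± 0.09, and Smarcd3, a subunit of the BAF chromatin remodelling complex, 3.02 ± 0.11, 2.47 ± 0.37 and 3.41 ± 0.16. The spread of Smarcd3 at GD9.0 was among the widest in the group, with 2.76, 2.27, 2.81 and 2.05 in replicates 1 to 4. In a list of 30 chromatin remodelling and Trithorax genes, of which Setd5 was the member in the group, 10 had their lowest mean at GD9.0 (25.0% of all genes at the minimum level), 4 were called lower and 4 higher at GD9.0 than GD8.5, and 9 higher and 4 lower at GD9.5 than GD9.0 (6.74%, 6.78%, 14.1% and 10.3% of all genes).

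Sox9, a factor of neural crest, glial and cartilage precursors, read 4.42 and 4.44 at GD8.5, 3.67, 3.55, 3.88 and 3.74 at GD9.0, and 4.24, 3.92, 4.21 and 4.41 at GD9.5. Only 0.04 separated the highest GD9.0 array from the lowest GD9.5 array. Another Sox9 probe set had means of 4.15, 3.85 and 4.15, a shallower dip that missed the rule. Sox9 was the member of the group among 12 measured neural crest genes, of which 6 were called lower and 4 higher at GD9.0 than GD8.5 (6.74% and 6.78% of all genes). At GD9.5, 3 were called higher and 6 lower than at GD9.0 (14.1% and 10.3% of all genes). Of the 10 at the minimum level, only Sox9 had its lowest mean at GD9.0, against 25.0% of all genes at that level. Rarb, a retinoic acid receptor, was also in the group, with means of 3.69, 3.27 and 3.71.

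**Figure D3:**
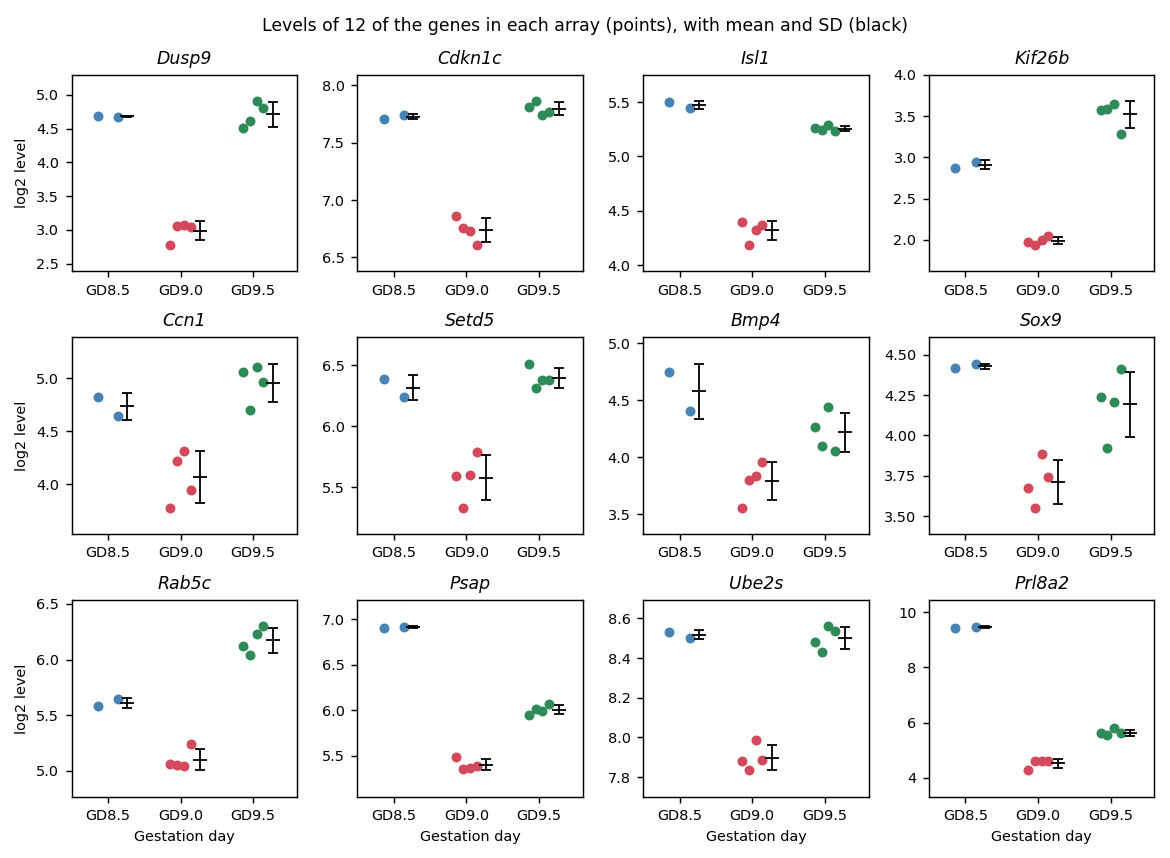
Log2 level of 12 of the 76 genes by gestation day, with 1 point per array and the mean and SD in black; each panel has its own axis. In Dusp9, Cdkn1c, Setd5 and Ube2s the mean at GD9.5 was within 0.1 of that at GD8.5, in Kif26b and Rab5c it was higher, and in Psap and Prl8a2 it was lower.

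The 9 genes of adhesion, matrix and cytoskeleton were led by Kif26b, a kinesin-like protein of the Wnt5a pathway that acts in cell adhesion and shape. Kif26b read 2.87 and 2.95 at GD8.5, 1.97, 1.94, 2.00 and 2.04 at GD9.0, and 3.57, 3.58, 3.65 and 3.28 at GD9.5. The GD9.5 mean was 2.89-fold above the GD9.0 mean. The level at GD9.5 exceeded that at GD8.5 by 0.61 ± 0.09 (limma adjusted p = 0.00049), the largest rise in the group. That rise was 0.10 and was not called when all 12 arrays were scaled together.

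Adam19, a membrane-bound protease that sheds growth factors, read 4.59 and 4.84 at GD8.5, 3.69, 3.48, 3.89 and 3.64 at GD9.0, and 4.25, 4.40, 4.48 and 4.45 at GD9.5. All 3 stages were separate, and the change from GD8.5 to GD9.5, -0.32 ± 0.11, did not pass (limma adjusted p = 0.0527). Mmp14, a membrane-anchored protease that cleaves collagen, had means of 3.98 ± 0.01, 3.39 ± 0.08 and 3.91 ± 0.17. Prnp, the prion protein, had 5.97 ± 0.05, 4.76 ± 0.05 and 5.27 ± 0.05 and was lower at GD9.5 than at GD8.5 by a log2 change of -0.70 ± 0.06 (limma adjusted p = 7.42e-06). In a list of 33 measured extracellular matrix genes, which holds Mmp14, 13 were called lower and 4 higher at GD9.0 than GD8.5, and 10 higher and 7 lower at GD9.5 than GD9.0 (6.74%, 6.78%, 14.1% and 10.3% of all genes). Lcp1, an actin-bundling protein of white blood cells, had means of 2.87, 2.44 and 2.88; the list of 22 macrophage and megakaryocyte genes that holds it averaged 1.65, 1.61 and 1.92, and 2 of its genes were at the minimum level.

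Of the 9 genes of vesicle traffic, endoplasmic reticulum and lysosome, Rab5c rose furthest. Rab5c, a small GTPase of early endosomes, read 5.58 and 5.64 at GD8.5, 5.07, 5.05, 5.04 and 5.24 at GD9.0, and 6.12, 6.04, 6.22 and 6.30 at GD9.5. It fell to GD9.0 by less than it then gained, and ended 0.56 ± 0.08 above GD8.5 (limma adjusted p = 0.000422). Ykt6, a SNARE protein of membrane fusion, had means of 6.80 ± 0.01, 6.17 ± 0.04 and 7.05 ± 0.07. Ykt6 was higher at GD9.5 than at GD8.5 by 0.26 ± 0.06 (limma adjusted p = 0.00933), a call lost without either GD8.5 array (0.25 and 0.26). Ehd1, an ATPase of endocytic recycling, had 6.10, 5.42 and 6.05, and Sec24d, a coat protein of vesicles leaving the endoplasmic reticulum, 4.43, 3.65 and 4.18.

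Psap, the precursor of the lysosomal saposins, went the other way. It read 6.91 and 6.92 at GD8.5, 5.48, 5.36, 5.36 and 5.39 at GD9.0, and from 5.94 to 6.07 in the 4 GD9.5 arrays. After a 2.86-fold fall to GD9.0 it regained 1.53-fold, so that the log2 change from GD8.5 to GD9.5 was -0.91 ± 0.06 (limma adjusted p = 8.57e-07).

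The 9 genes of RNA processing, translation and protein turnover had the lowest median dip of the role groups, 0.45. Rnase4, a secreted ribonuclease, read 4.14 and 3.93 at GD8.5, 2.40, 2.66, 2.87 and 2.77 at GD9.0, and 3.14, 3.23, 3.49 and 3.61 at GD9.5. It fell by more than it regained, with a log2 change from GD8.5 to GD9.5 of -0.67 ± 0.15 (limma adjusted p = 0.00609) that was not called without GD8.5 replicate 3 (-0.56). Sympk, a scaffold of the complex that cuts and polyadenylates mRNA, had means of 5.24, 4.61 and 5.34. Psmd13, a subunit of the proteasome's regulatory particle, had 5.74 ± 0.02, 5.19 ± 0.10 and 6.20 ± 0.05 and ended higher by 0.46 ± 0.07 (limma adjusted p = 0.00063). In a list of 27 measured proteasome and ubiquitin genes without Psmd13, 1 was called higher at GD9.0 than GD8.5 (6.78% of all genes) and 1 had its lowest mean at GD9.0 (25.0% of all genes at the minimum level).

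Among the 6 metabolic enzymes, Hsd17b11, a short-chain dehydrogenase of lipid droplets, had the deepest dip. It read 4.75 and 4.42 at GD8.5, 3.77, 3.41, 3.72 and 3.78 at GD9.0, and 4.36, 4.51, 4.49 and 4.64 at GD9.5. The arrays before and after overlapped. Aldh2, the mitochondrial aldehyde dehydrogenase, had means of 3.99, 3.45 and 4.24. Ddc, the decarboxylase that makes dopamine and serotonin, had 4.63 ± 0.09, 3.73 ± 0.15 and 4.32 ± 0.09, and Npl, an enzyme of sialic acid breakdown, 5.59 ± 0.09, 4.78 ± 0.15 and 5.30 ± 0.07. Both were lower at GD9.5 than at GD8.5, by log2 changes of -0.32 ± 0.10 for Ddc and -0.29 ± 0.09 for Npl (limma adjusted p = 0.0321 and 0.0414), calls lost when either GD8.5 array was left out (-0.38 and -0.25 for Ddc, -0.22 and -0.35 for Npl without replicate 3 and 4). The Ddc call was also lost without GD9.5 replicate 1 (-0.32) or 2 (-0.27), and the Npl call without GD9.0 replicate 1 or 4 (-0.29 in both) or GD9.5 replicate 1, 2 or 3 (-0.28 to -0.27). Median centring ended both calls (-0.28 for Ddc, -0.25 for Npl), and with probe sets averaged the Ddc change was -0.07 and not called.

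The 7 genes of membrane transport and channels included Folr1, the folate receptor alpha, without which the mouse neural tube does not close. Folr1 read 3.84 and 3.16 at GD8.5, 2.78, 2.59, 3.01 and 2.83 at GD9.0, and 3.29, 3.09, 3.34 and 3.46 at GD9.5. The GD8.5 arrays differed by 0.68, and only 0.07 separated the highest GD9.0 array from the lowest GD9.5 array, a narrow gap. Slc22a23, an orphan member of the organic ion transporter family, had means of 3.72, 3.09 and 3.89, and Clic1, a chloride intracellular channel family protein, 6.48, 5.96 and 6.52. Clic6, of the same family as Clic1, read 5.28 in both GD8.5 arrays, 3.39, 2.95, 3.30 and 3.28 at GD9.0, and 3.75, 3.76, 3.85 and 3.76 at GD9.5. In Clic6 the level rose by 0.55 after a fall of 2.05 on the log2 scale, with a log2 change from GD8.5 to GD9.5 of -1.50 ± 0.10 (limma adjusted p = 8e-07).

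The 7 genes with other roles or none assigned here included Agap3, a GTPase-activating protein for Arf, with means of 3.14 ± 0.38, 2.48 ± 0.10 and 3.53 ± 0.20. The means of Proser1 were 4.95, 4.30 and 4.83, those of Btbd9 3.27, 2.82 and 3.34, and those of Mpped2 3.48, 2.82 and 3.27. For these genes the GD8.5 and GD9.5 arrays overlapped, as Agap3 read 3.41 and 2.87 at GD8.5 and from 3.34 to 3.79 at GD9.5.

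Some of the genes that were much higher at GD8.5 than at GD9.5 are known from tissues around the neural tube. Prl8a2, a prolactin-like hormone made by the decidua, the uterine lining from which the embryos were freed, read 9.45 and 9.48 at GD8.5, 4.27, 4.61, 4.60 and 4.60 at GD9.0, and 5.61, 5.54, 5.79 and 5.63 at GD9.5. Its level fell 30.8-fold from GD8.5 to GD9.0 and then rose 2.17-fold, and its log2 change from GD8.5 to GD9.5 was -3.82 ± 0.10 (limma adjusted p = 4.17e-10). Prl8a2 belongs to a list of decidua and trophoblast genes, 15 of them measured, of which 10 were called lower and 1 higher at GD9.0 than GD8.5, and 5 lower and 1 higher at GD9.5 than GD9.0 (6.74%, 6.78%, 10.3% and 14.1% of all genes). That list averaged 3.67 to 3.76 in the GD8.5 arrays, 2.18 to 2.27 in those of GD9.0 and 1.88 to 1.96 in those of GD9.5.

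Epas1, the hypoxia-inducible factor 2 alpha of blood vessel cells, read 4.60 and 4.38 at GD8.5, 2.33, 2.28, 2.17 and 2.76 at GD9.0, and 2.95, 2.81, 2.89 and 2.93 at GD9.5. GD9.0 replicate 4 of Epas1 came within 0.06 of the lowest GD9.5 array, and the log2 change from GD8.5 to GD9.5 was -1.59 ± 0.14 (limma adjusted p = 5.28e-06). Of 26 measured endoderm and yolk sac genes, 22 were called lower at GD9.0 than GD8.5 and 18 lower at GD9.5 than GD9.0 (6.74% and 10.3% of all genes). Of 22 endothelium genes, 7 were called lower and 2 higher at GD9.0 than GD8.5, and 7 lower and 1 higher at GD9.5 than GD9.0. Of all genes, 6.74%, 6.78%, 10.3% and 14.1% were called in these directions. The endothelium list averaged 3.42, 3.24 and 3.11 in order of stage. The endoderm and yolk sac list averaged 5.14 to 5.17 in the GD8.5 arrays, 3.22 to 3.26 in those of GD9.0 and 2.21 to 2.25 in those of GD9.5, and the 24 cardiac muscle genes 4.22 to 4.30, 2.35 to 2.40 and 1.40 to 1.54. Not all lists of other tissues fell at each step. The erythroid list averaged 3.80, 4.34 and 4.73 in order of stage, and the mesenchyme and somite list 3.785, 3.665 and 3.69. The surface ectoderm list averaged 4.14, 3.75 and 3.34. None of these lists held a gene of the group other than Prl8a2. The median change in the endoderm and the cardiac list was negative at each step. The part of these tissues in the levels of Prl8a2, Epas1, Clic6, Psap, Prnp and Rnase4 was not tested.

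In the comparison of GD9.5 with GD8.5, 14 of the 76 genes (18.4%) were called higher and 13 (17.1%) lower at a limma adjusted p under 0.05 over all genes, and 49 were not called. Over all 18193 genes, 15.5% were called higher and 13.1% lower, and over the 8943 genes at the minimum level 24.8% and 18.3%. Both shares of the group were above those of all genes and below those of genes at the minimum level. A total of 42 ended above their GD8.5 mean and 34 below it, and 37 ended within 0.2 of it. The counts rest on few arrays: without GD8.5 replicate 3 they were 8 higher and 8 lower, without GD8.5 replicate 4 they were 7 and 10, and without GD9.5 replicate 2 they were 10 and 8. Scaling moved the balance as well, with 15 higher and 8 lower after centring each array on its median, and 10 and 17 after another quantile normalization.

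By role, the calls were spread over all 9 groups, against 15.5% higher and 13.1% lower among all genes. In cell cycle, mitosis and stress response, 3 of 7 were called higher. RNA processing, translation and protein turnover had 3 of 9 higher and 1 lower, adhesion, matrix and cytoskeleton 2 of 9 higher and 1 lower, and vesicle traffic, endoplasmic reticulum and lysosome 2 of 9 higher and 1 lower. Signalling had 1 of 10 higher and 3 lower, transcription and chromatin 1 of 12 higher and 3 lower, and metabolic enzymes 1 of 6 higher and 2 lower. Prl8a2 was 1 of the 3 signalling genes called lower. In membrane transport and channels, 1 of 7 was called lower and 6 were not called, and in the group of other roles 1 of 7 was higher and 1 lower. The roles were assigned after the genes were known, so these counts are a description.

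**Figure D4:**
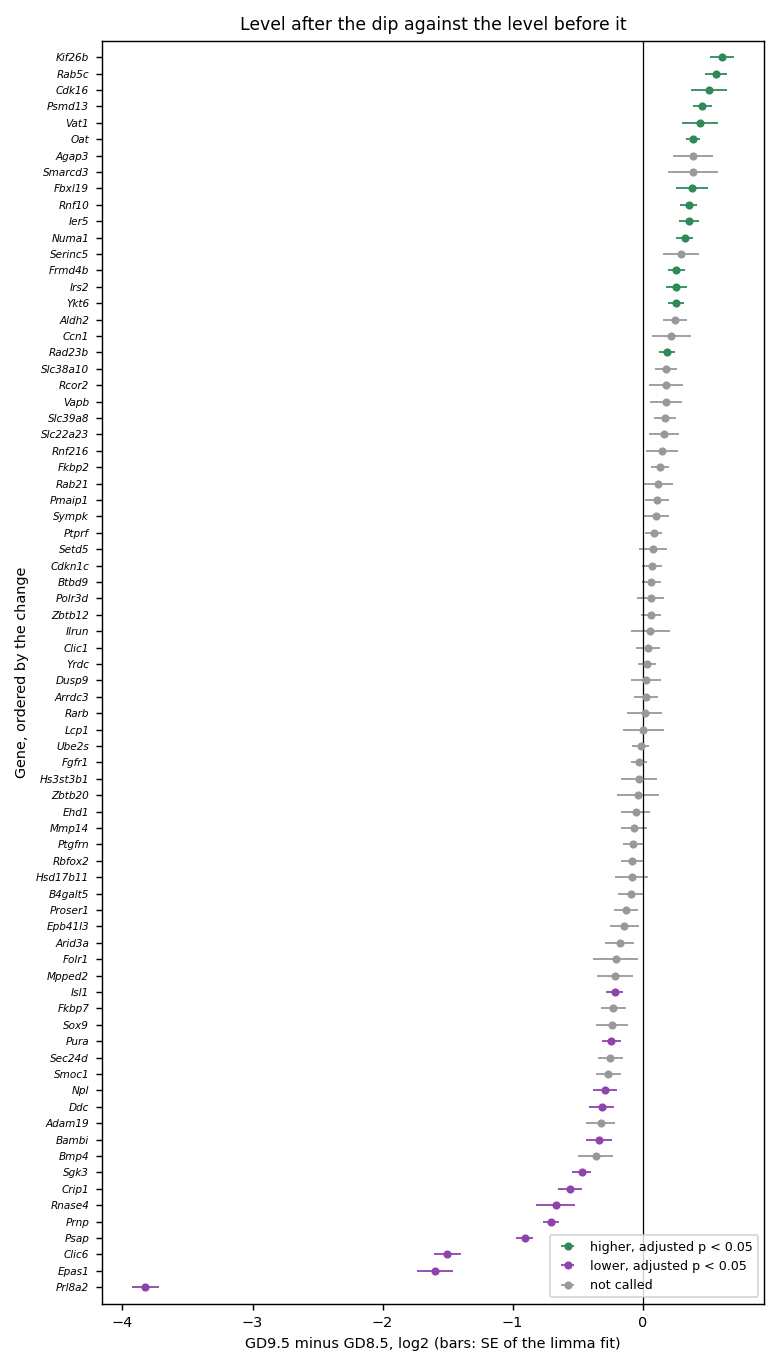
Change from GD8.5 to GD9.5 (log2, with the SE of the limma fit) for each of the 76 genes, ordered by the change and coloured by the call. The 14 genes called higher end at 0.61 for Kif26b, the 13 called lower begin at -3.82 for Prl8a2, and the other 49 were not called.

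Of the 27 called genes, 19 are described here with their change, and 8 of them (Prl8a2, Epas1, Clic6, Psap, Prnp, Rab5c, Psmd13 and Numa1) were called under all 18 other settings tried. Cdk16, a kinase of the PCTAIRE family, had means of 7.03 ± 0.04, 6.53 ± 0.23 and 7.54 ± 0.15 and was higher at GD9.5 than at GD8.5 by 0.51 ± 0.14 (limma adjusted p = 0.015), a call lost without either GD8.5 array (0.49 and 0.54) and with probe sets averaged (0.12). Rad23b, a protein that carries ubiquitinated proteins to the proteasome and acts in DNA repair, had 6.93 ± 0.0013, 6.48 ± 0.01 and 7.12 ± 0.08. Its rise of 0.19 ± 0.06 (limma adjusted p = 0.0397) was called without GD9.5 replicate 1 but not without any 1 of the other 9 arrays, where it was 0.17 to 0.19. It was also not called with probe sets averaged (0.03), with all 12 arrays (0.15) or after another quantile normalization (0.17).

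The GD8.5 arrays that had no part in the choice were set beside the others after log2 and quantile normalization of all 12 arrays. Their values are compared with the same GD9.0 arrays that the rule used, so they are a description. In GD8.5 replicate 1, 69 of the 76 genes read above their GD9.0 mean and 54 (71.1%) by at least 0.4, and in replicate 2 the counts were 68 and 52 (68.4%). Of all genes at the minimum level, 44.5% and 46.0% read above their GD9.0 mean in these arrays, and 12.2% and 11.6% by at least 0.4. The median gene of the group stood 0.72 above GD9.0 in replicate 1 and 0.60 in replicate 2.

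GD8.5 replicate 1 read above every GD9.0 array in 67 of the 76 genes and replicate 2 in 64. Of all genes at the minimum level, 35.8% and 36.4% did so. For 63 of the 76 genes both of these arrays read above every GD9.0 array, a count without a matching share over all genes. Dusp9 was 1.71 and 2.16 above its GD9.0 mean in replicates 1 and 2, Cdkn1c 1.29 and 1.46, Isl1 1.32 and 1.25, and Kif26b 1.60 and 2.03. Prl8a2 was 4.80 and 4.72 above, against 4.87 on the same scale in the arrays used. Averaged over these 2 arrays, 8 genes were at or below GD9.0: Agap3, Fbxl19, Irs2, Polr3d, Rcor2, Rnf216, Smoc1 and Zbtb20. For Agap3 the differences were -0.18 and -0.23 and for Rcor2 -0.08 and -0.39, so on this scale they had no dip relative to GD8.5 replicates 1 and 2. The processing of these arrays is not stated, and a difference in processing cannot be told apart from a difference between samples. Of all genes at the minimum level, 12.2% and 11.6% read at least 0.4 above GD9.0 in replicates 1 and 2. In replicates 3 and 4, 5.48% and 5.86% did. When the rule was applied to all 12 arrays, it took 80 genes, of which 53 were among the 76.

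**Figure D5:**
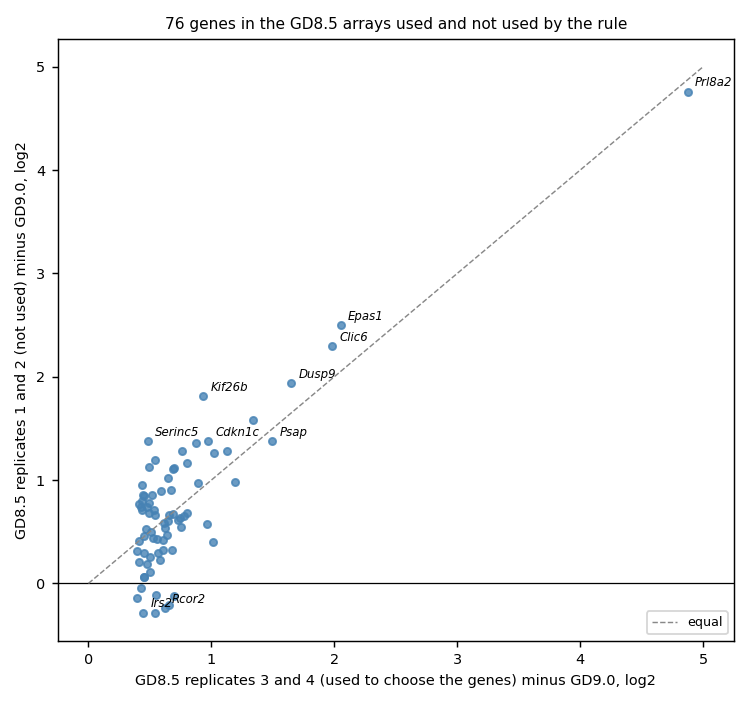
Each point is 1 of the 76 genes: the x axis is GD8.5 minus GD9.0 (log2) from the GD8.5 replicates that were used to choose the genes, the y axis the same from the replicates that were not, all 12 arrays scaled together. The 8 points at or below the horizontal line are genes without a dip in the arrays not used, and the dashed line marks equal values.

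Many genes are read by more than 1 probe set. The 76 genes had 101 other probe sets in 48 genes, 39 of them at the minimum level. Of these 39, 32 (82.1%) had their lowest mean at GD9.0 and 14 (35.9%) met the whole rule, against 23.4% and 0.7% of 5999 other probe sets of all genes at that level. These probe sets read the same RNA on the same arrays and are not separate evidence for the samples. A probe set each of Cdk16, Rad23b and Rbfox2, a splicing regulator, was highest at GD9.0, with 4.15, 4.16 and 4.10 for Cdk16, 4.14, 4.19 and 3.69 for Rad23b and 2.94, 3.00 and 2.99 for Rbfox2. A probe set each of Setd5 (3.45, 3.56 and 3.89), Ccn1 (3.14, 3.21 and 4.02), Proser1 (2.86, 2.97 and 3.27) and Vapb (3.02, 3.05 and 3.11) was lowest at GD8.5. The dips of these 7 genes thus depend on the probe set read. Among their other probe sets at the minimum level, 1 each of Cdk16, Setd5 and Vapb and 2 each of Rad23b and Ccn1 were lowest at GD9.0. A lowest mean at GD9.0 could also come with a small return by GD9.5. At the minimum level, GD9.5 minus GD9.0 was 0.16 in another probe set of Clic6 and 0.08 and 0.05 in 2 of Pura. It was 0.08 in another probe set each of Vapb and Rad23b, and 0.02 in another of Psmd13. In another probe set of Prnp, under that level at GD9.5, the difference was 0.03. With all probe sets of a gene averaged, the rule took 35 genes, 34 of them among the 76.

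Of the 76 genes, 12 (15.8%) were in any of 37 pathway lists, which held 4.91% of all genes and 7.26% of genes at the minimum level; the lists were written with earlier results of these data known. All 76 are protein coding, with a median gene length of 28242.5 bp against 25185 bp for genes at the minimum level. They lay on 19 chromosomes, with 8 of the 76 genes on each of chromosomes 7 and 11, which hold 7.0% and 8.2% of genes at the minimum level, and 0 on chromosome 9, which holds 5.6%. No pair of them were neighbours among the genes at that level.

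Promoters of 57 of the 76 genes, from 250 bases before to 50 after the start, were found in RefSeq's annotation of GRCm38.p6. Their median G+C content was 62.0%, against 61.7% for 7345 genes at the minimum level and 52.8% for all 27025 genes with a promoter there. Where a gene had several promoters, their G+C was averaged, and a motif was counted if any of them held it. The SP1 box, GGGCGG on either strand, was in 48 of 57 (84.2%), against 72.8% and 38.2%. The AP-1 site, TGANTCA on either strand, was in 7 (12.3%), against 5.26% and 8.97%, and the TATA box, TATAAA on either strand, was in 7 (12.3%), against 7.96% and 15.7%. The ETS site, CCGGAAG on either strand, was in 8 of 57, against 22.9% and 9.93%. The CArG box of the serum response factor was in 0 of 57, against 1.59% and 1.81%. To show what the most common of these motifs looks like in the group, the 100 bases before the start are printed for the 4 genes of deepest dip that hold it there, 5′ to 3′ on the gene's strand, with the SP1 box in capitals in either orientation. A match is a description of the letters only.

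Hs3st3b1 (GRCm38.p6, chr11:63922285-63922384, minus strand): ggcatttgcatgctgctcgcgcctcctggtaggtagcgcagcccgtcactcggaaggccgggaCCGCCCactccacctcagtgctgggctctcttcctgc
Ccn1 (GRCm38.p6, chr3:145649986-145650085, minus strand): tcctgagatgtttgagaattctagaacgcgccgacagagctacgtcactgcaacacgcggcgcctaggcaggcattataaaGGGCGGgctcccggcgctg
Agap3 (GRCm38.p6, chr5:24452077-24452176, plus strand): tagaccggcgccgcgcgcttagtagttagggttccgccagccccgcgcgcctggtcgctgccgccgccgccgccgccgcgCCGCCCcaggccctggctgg
Slc22a23 (GRCm38.p6, chr13:34345219-34345318, minus strand): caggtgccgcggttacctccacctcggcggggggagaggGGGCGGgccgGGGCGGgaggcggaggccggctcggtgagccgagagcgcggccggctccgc

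Slc22a23 holds the box at 2 places. In Ccn1 the box lies directly after a TATA box, 19 bases before the start.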

How the data were processed

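Neural tube RNA of 3 stages was measured on 12 arrays of 45101 probe sets. The values are those the authors deposited: log2 levels for 10 arrays, already normalized across arrays as their values show, and linear intensity for GD8.5 replicates 1 and 2. RMA, GCRMA and Affymetrix Expression Console 1.2.1 appear in the submitters' processing notes without role or order, and which made which column is not stated in the sources at hand. Of the probe sets, 34945 named 1 gene in the platform annotation, and each gene was read by the brightest of these.

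The genes, roles and pathway lists were chosen with earlier results of these data known, and the roles after the genes were known. The limma package (3.58.1, R 4.3.3) estimated a mean for each stage over the 10 arrays (7 residual and 3.86 prior degrees of freedom), called at a Benjamini-Hochberg adjusted p under 0.05 over 18193 genes, and errors of changes are standard errors of that fit. The fit was tested on simulated data. Nothing in the labels ties equal replicate numbers to an animal or litter, and the fit had no block for it. Named genes were the 14 deepest dips, up to 4 per role and list, and the 4 largest rises and falls. Those next to the threshold and those with an opposing probe set were named as well. Fgfr1, Rarb, Vapb, Pura, Fbxl19, Irs2, Rnf216, Smoc1 and Zbtb20 were named after their values were seen. Alternatives were scaling, probe set choice, thresholds, a fit of all 12 arrays, spread models, a replicate block and leaving out each array.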

Additional observations from a re-analysis of the deposited data

Results flagged for a closer look

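In 9 of 108 sets of 4 arrays checked, 1 array stood apart from the other 3 by more than the critical value of Dixon's test, where chance gives about 1 in 20. At GD9.0, replicate 1 was the low array for Dusp9 (2.779, with the others from 3.046 to 3.066) and for Prl8a2 (4.273, others 4.598 to 4.605). Hsd17b11 was low in replicate 2 (3.409, others 3.722 to 3.784), and Agap3 was low in replicate 4 (2.334, others 2.514 to 2.536). Rab5c was high in GD9.0 replicate 4 (5.242, others 5.043 to 5.066).

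At GD9.5, replicate 3 was the high array for Psmd13 (6.279, others 6.171 to 6.185) and Clic6 (3.846, others 3.746 to 3.762), and replicate 4 for Sgk3 (3.108, others 2.932 to 2.939). Xist was high in GD9.5 replicate 2 (9.241, others 9.121 to 9.14).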

How the results depend on the processing

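The rule took 76 genes as applied, 148 with a dip of 0.3, 39 with a dip of 0.5 and 35 with all probe sets of a gene averaged, and 71 to 96 when 1 array was left out. Other settings took 52 to 80 genes, fewest with a minimum level of 4. Without the condition that every GD9.0 array read below all others, the rule took the same 76 genes. Higher calls at GD9.5 against GD8.5 numbered 14, and 7 to 14 when 1 array was left out; lower calls numbered 13, and 8 to 15 when 1 array was left out and 8 after median centring. With the replicate block, 12 were higher and 10 lower, and 11 and 9 of them were shared with the calls above. Bambi (-0.25), Isl1 (-0.20), Npl (-0.21) and Rad23b (0.21) were not called with the block. Correlations of same-numbered arrays ran from -0.06 to 0.15, and those of differently numbered arrays from -0.19 to 0.16. These values cannot tell whether equal numbers share a litter or day, which the labels do not say. No member was called in the opposite direction under any of the 18 settings. Of the 19 called genes described by name, 8 were called under all 18, 11 without each array in turn, and 11 were lost under at least 1 setting, with no change of sign. Precision at GD8.5 rests on 2 arrays, and levels near 2 lie close to the array's background.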
